A study of Mus musculus with 8 samples.

Results

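The genes described are 10 transcription factors of the oligodendrocyte (OL) lineage, *Olig1*, *Olig2*, *Sox10*, *Myrf*, *Nkx2-2*, *Nkx6-2*, *Tcf7l2*, *St18*, *Zfp488* and *Sox6*. They were chosen by name for their known roles in OL precursor cells (OPCs), committed OPCs and OLs, and are 10 of 33696 genes counted. Earlier results of these data were known at that choice, so their counts beside the share of all genes are descriptions. Single nuclei of mouse optic nerves (ONs) were profiled at postnatal day 120 with a droplet kit that tags the 3-prime ends of transcripts. There were 4 libraries of Piezo2f/f control mice (replicates 1 to 4), which carry the floxed *Piezo2* alleles without cre, and 4 libraries labelled Olig2-cre;Piezo2f/f cKO (replicates 10 to 13). Each library pooled 6 ONs from 3 female mice, so a library averages several animals. In the second group cre was knocked into an exon of *Olig2*, so that the promoter of this gene drives it, and the study calls its *Olig2-cre* mice heterozygous. The counts per gene do not separate alleles. Effects of cre, of the interrupted *Olig2* allele and of the deletion in *Piezo2* cannot be told apart, because each library analysed here that carried cre also carried the floxed alleles.

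OPCs divide, commit to differentiation, pass through a short *Gpr17*-expressing stage and become myelinating OLs. OLIG1 and OLIG2 are basic helix-loop-helix factors, and OLIG2 is required for the lineage to form. SOX10 is the HMG-box factor that activates myelin genes and switches on *Myrf*, whose product drives and maintains the myelin program. NKX2-2 and NKX6-2 are homeodomain repressors, TCF7L2 is an effector of Wnt signalling that is known from newly differentiating cells, ST18 and ZFP488 are zinc finger proteins, and SOX6 restrains the terminal steps in precursors.

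The libraries held 39628926 to 56541132 unique molecular identifiers (UMIs, each counting 1 captured transcript), and 37270 nuclei passed all filters. Between 3477 and 6243 nuclei were kept per library, and 153 barcodes occurred in 2 libraries. Clusters were named from marker lists that held none of the 10 genes, and the 10 genes were left out of the clustering as well. OPCs comprised 338 control and 448 cKO-labelled nuclei, committed OPCs 50 and 77, and OLs 7954 and 11192. The targeted gene *Piezo2* showed no decrease in OLs. In CPM, the UMIs of a gene as a part of all UMIs of the summed nuclei, scaled to the same total in every sum, its level was 507, 391, 407 and 491 in the control libraries, against 532, 537, 573 and 522 in the libraries labelled cKO. A count summed over the whole gene cannot show whether the floxed part is missing, so these libraries are called by their label. Control replicate 3 stood apart through pituitary RNA, with a summed pituitary marker level of 1019 CPM in its OLs, and member calls that change without it are given with that value. The other control libraries held 26.5, 95.4 and 37.9 CPM of these markers in OLs, so each control library lay above every library labelled cKO (1.60 to 16.2 CPM), and the part of pituitary RNA in the differences between genotypes was not tested.

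For 3 of the genes the level pooled over control libraries was highest in committed OPCs and a promoter window is in the RefSeq table, and their upstream sequence is shown for that reason. *Nkx2-2* was not called between committed OPCs and OPCs, and *Sox6*, with nearly the same pooled level in both, is not shown. Each line gives the 250 bases before an annotated transcription start (build GRCm38.p6, 5-prime to 3-prime on the strand of the gene). Capitals mark ACAAT or its reverse complement ATTGT, core letters bound by SOX proteins. The windows are *Tcf7l2* at chr19:55741560-55741809 (plus strand, 1 of 2 windows of the gene), *Nkx2-2* at chr2:147186403-147186652 (minus strand) and *Zfp488* at chr14:33978765-33979014 (minus strand).
Tcf7l2: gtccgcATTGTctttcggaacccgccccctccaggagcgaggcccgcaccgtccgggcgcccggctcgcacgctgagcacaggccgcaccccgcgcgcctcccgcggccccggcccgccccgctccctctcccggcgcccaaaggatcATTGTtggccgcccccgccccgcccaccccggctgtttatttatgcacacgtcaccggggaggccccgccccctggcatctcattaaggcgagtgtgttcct
Nkx2-2: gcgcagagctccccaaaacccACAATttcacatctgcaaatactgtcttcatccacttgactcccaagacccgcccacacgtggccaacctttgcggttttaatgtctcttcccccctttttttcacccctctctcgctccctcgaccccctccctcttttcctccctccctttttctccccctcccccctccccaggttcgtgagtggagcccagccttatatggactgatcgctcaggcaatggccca
Zfp488: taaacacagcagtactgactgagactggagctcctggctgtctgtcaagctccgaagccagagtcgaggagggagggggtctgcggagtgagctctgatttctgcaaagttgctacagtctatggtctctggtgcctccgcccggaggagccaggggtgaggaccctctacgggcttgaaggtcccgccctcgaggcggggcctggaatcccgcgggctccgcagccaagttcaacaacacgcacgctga

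The *Tcf7l2* window held 2 matches, 244 and 102 bases before the start. The *Nkx2-2* window held 1, 229 bases before it, and the *Zfp488* window held 0. These letters occur on either strand in 27.7% of all 32851 windows of this length in the table, so a match is a description and not a site. Promoter windows were found for 6 of the 10 genes, 12 windows in all, of which 6 windows of 4 genes held the letters. The E-box CAGCTG, letters that bHLH proteins bind, occurred in 1 of the 12 windows and in 13.0% of all windows.

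In the annotation of the build used for the counts (GRCm39), *Olig1* (chr16:91066660-91068821, plus strand, 1 exon) and *Olig2* (chr16:91019435-91025567, plus strand, 2 exons) are neighbours, 41.1 kb apart. *Sox10* lies at chr15:79039108-79049469 (4 exons), *Myrf* at chr19:10185634-10218161 (27 exons), *Nkx2-2* at chr2:147019466-147036163 (2 exons), *Nkx6-2* at chr7:139159292-139162718 (3 exons) and *Zfp488* at chr14:33689024-33700769 (2 exons). All 5 are on the minus strand. The 3 longest genes are *Tcf7l2* (chr19:55730188-55922091, plus strand, 191.9 kb), *St18* (chr1:6557455-6931164, plus strand, 373.7 kb) and *Sox6* (chr7:115070106-115638860, minus strand, 568.8 kb). Levels are compared between genes only per kilobase of span. This assumes that unspliced transcripts were counted, which the sources used here do not state, and how level depends on span was not tested.

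Across the control libraries *Tcf7l2* and *Zfp488* were higher in committed OPCs than in OPCs and in OLs, *St18* and *Myrf* were higher in committed OPCs and in OLs than in OPCs, and *Sox6*, *Olig2* and *Nkx2-2* were higher in OPCs and in committed OPCs than in OLs. *Olig1* was lower in both later stages than in OPCs, *Nkx6-2* was higher in OLs than in OPCs, and for *Sox10* no difference between the stages was called in the first fit. Levels are given in CPM, summed over the nuclei of a cell type. Differences are log2 fold changes with standard errors from edgeR's quasi-likelihood test on sums per library and cell type, fitted over 12745 genes, with Benjamini-Hochberg adjustment. For the stages 1 fit held the sums of all named cell types, which share 1 estimate of spread per gene. A standard error is therefore not the spread within the compared stages alone. Calls required an adjusted p below 0.05 together with an absolute log2 fold change above 0.5. The comparison of stages asks which regulators change when precursors commit and when they mature. For committed OPCs, 2 control libraries (replicates 1 and 3) had the 10 nuclei needed to enter the fit, so the 8 and 9 nuclei of the other libraries appear only as levels. Where the levels of stages do not overlap, this is a description, since the share of all genes that separate likewise was not counted.

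**Figure D1:**
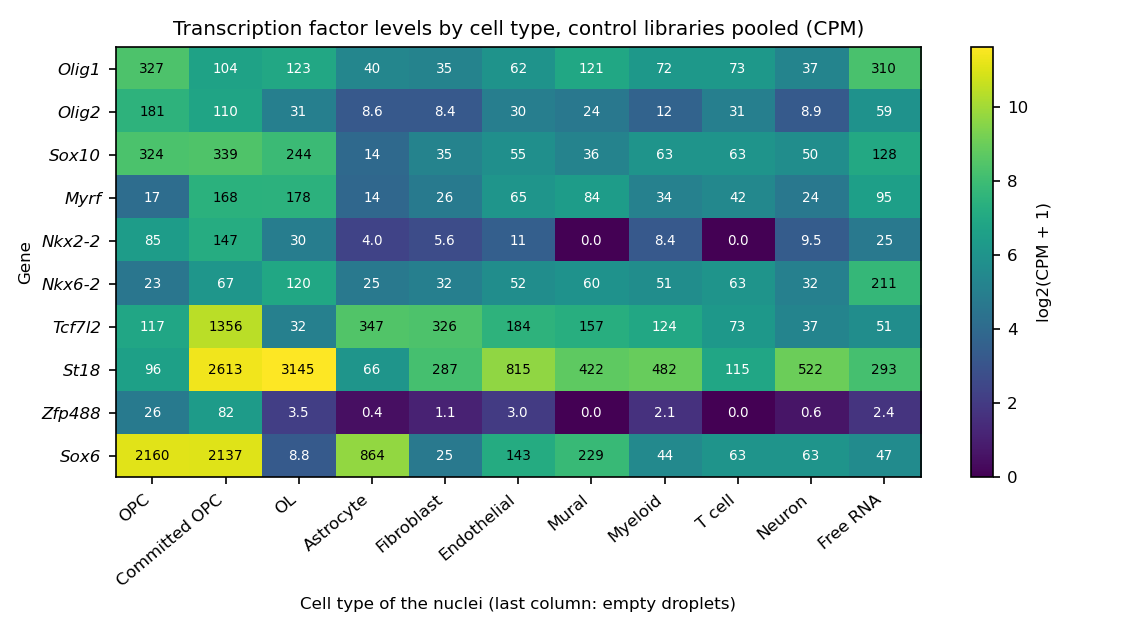
Pooled level of each gene (rows) in 10 cell types and in free RNA (columns) of the 4 control libraries, in CPM, with colour as log2(CPM + 1) and the CPM printed in each cell, to be read along a row. *Tcf7l2* stood at 1356 CPM in committed OPCs against 32.2 CPM in OLs, *St18* at 3145 CPM in OLs, and *Sox6* at 2160 CPM in OPCs.

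*Olig1* was highest in OPCs, with 245, 350, 399 and 341 CPM in control replicates 1 to 4, and stood at 75.8, 117, 174 and 135 CPM in OLs. Every OPC value lay above every OL value, and *Olig1* was lower in OLs with a log2 fold change of -1.31 ± 0.22 (adjusted p = 2.05e-06, edgeR). The decrease was already present in committed OPCs (103, 101, 118 and 65.2 CPM, log2 fold change -1.69 ± 0.41, adjusted p = 0.00414). That call was lost without replicate 3 (-1.78, adjusted p = 0.142), when a single committed OPC sum was left and was assumed to vary like the others.

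*Olig2* showed 106, 218, 249 and 173 CPM in OPCs and 23.8, 31.7, 41.3 and 27.5 CPM in OLs of the same libraries. The groups did not overlap, with a log2 fold change of -2.47 ± 0.21 (adjusted p = 1.61e-13, edgeR). Committed OPCs lay between them, at 103, 43.1, 132 and 152 CPM. The first step did not pass the test (-0.73 ± 0.37, adjusted p = 0.273), while the second step did (-1.74 ± 0.41, adjusted p = 0.00168). Since all sums of a library come from the same pool of animals, a fit with libraries as blocks was run as well, and it called *Olig2* lower in committed OPCs (-0.87, adjusted p = 0.0402). Without replicate 3, when 1 committed OPC sum was left, the second step was -1.60 and not called. After thinning each nucleus to 1000 UMIs it was not called either (-1.61, adjusted p = 0.146, edgeR).

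*Sox10*, the activator shared by all stages, varied least. Its levels were 272, 312, 332 and 414 CPM in OPCs, 325, 273, 395 and 283 CPM in committed OPCs, and 224, 246, 242 and 275 CPM in OLs. OPC and OL values overlapped by 1 pair of libraries, and the difference was -0.32 ± 0.22 (adjusted p = 0.281, edgeR). This difference depends on scaling. With the RLE factors of edgeR it was -0.62 (adjusted p = 0.0235), and with DESeq2 -0.62 (adjusted p = 0.0298), past the threshold in both. The median of the same 12745 genes moved from 0.11 to -0.18 with RLE, and relative to that median *Sox10* stood at -0.43 in the first fit and -0.44 with RLE. DESeq2 tested 21699 genes and differs in its model as well, so its value cannot be put down to scaling alone.

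*Sox6* was high in both precursor stages and nearly absent from OLs. OPCs held 2107, 2242, 2216 and 2084 CPM, committed OPCs 2642, 1984, 2163 and 1544 CPM, and OLs 7.85, 6.51, 9.50 and 12.5 CPM. Between OPCs and committed OPCs no difference was called (log2 fold change -0.00 ± 0.42, adjusted p = 1, edgeR), with a standard error that rests on all cell types in the fit. Between committed OPCs and OLs *Sox6* fell by 7.80 ± 0.48 on the log2 scale (adjusted p = 1.33e-17), the largest difference of any of the 10 genes at this step. The OL level was 0.185 of the level in free RNA (47.4 CPM), the RNA in barcodes too shallow to hold a nucleus.

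**Figure D2:**
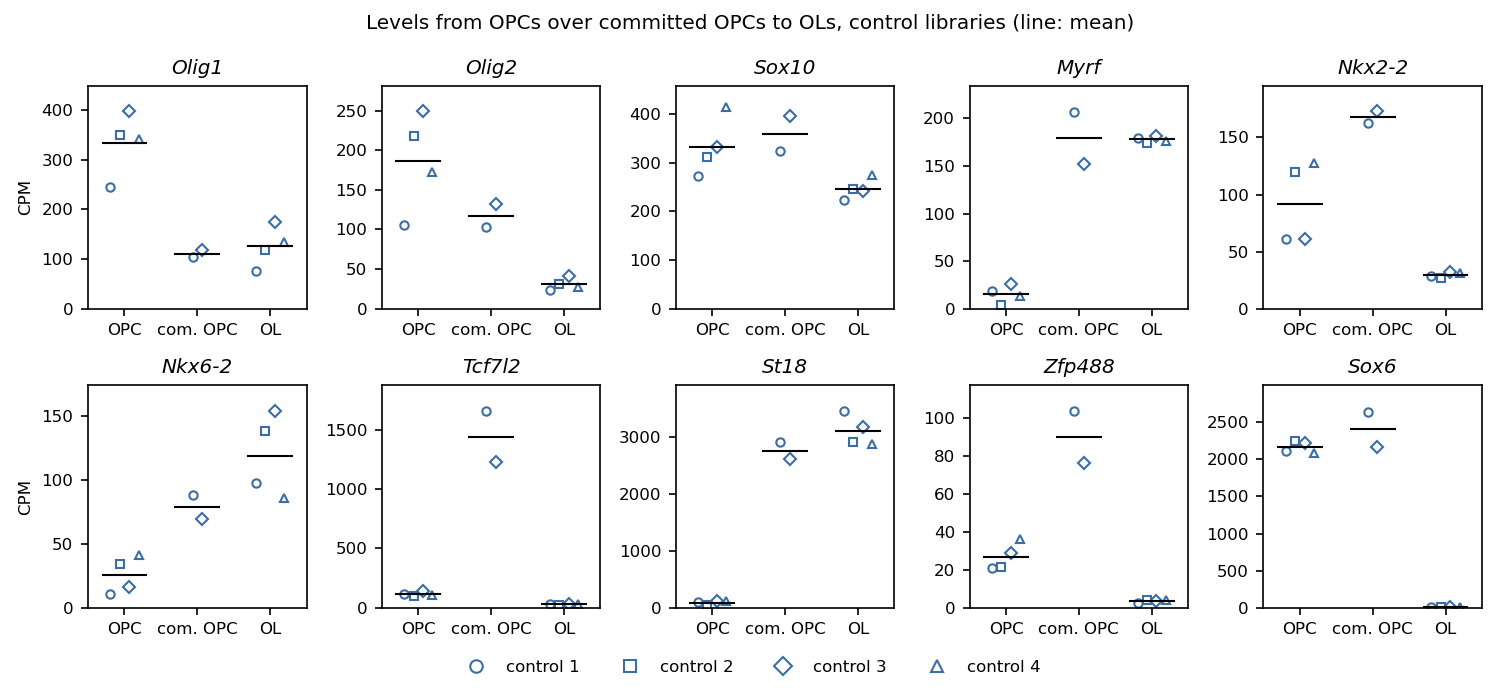
Level of each gene (CPM, linear axis from 0, 1 panel per gene) in OPCs, committed OPCs and OLs of the 4 control libraries, with 1 point per library (marker shape) and a line at the mean. *Tcf7l2* and *Zfp488* peaked in committed OPCs, *Sox6* was high in both precursor stages, and *St18* and *Myrf* were high from committed OPCs on. Committed OPCs are drawn for replicates 1 and 3, whose sums hold at least 10 nuclei.

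*Tcf7l2* marked the committed stage most sharply. It stood at 113, 98.2, 140 and 109 CPM in OPCs, at 1653, 1409, 1227 and 1240 CPM in committed OPCs, and at 34.3, 28.1, 33.4 and 32.3 CPM in OLs. No value of 1 stage overlapped with another. It rose by 3.46 ± 0.31 (log2) from OPCs to committed OPCs (adjusted p = 1.5e-11, edgeR; 3.73 without replicate 3, adjusted p = 2.17e-07) and was then lower in OLs by a log2 fold change of -5.22 ± 0.29 (adjusted p = 4.55e-19). The OL level was below that of OPCs as well (-1.76 ± 0.28, adjusted p = 6.66e-07).

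*Zfp488* followed the same order at lower counts, with 30 UMIs in all control OPCs, 27 in committed OPCs and 82 in OLs. Levels were 21.1, 21.4, 28.7 and 36.4 CPM in OPCs, 103, 101, 76.3 and 43.5 CPM in committed OPCs, and 2.80, 3.94, 3.44 and 4.16 CPM in OLs. Every committed OPC value was above every OPC value and every OPC value above every OL value. The committed OPC values of replicates 2 and 4 come from 9 and 8 nuclei outside the fit, that of replicate 4 from fewer than 3 UMIs. The rise was 1.57 ± 0.50 (adjusted p = 0.0384, edgeR) and was not called without replicate 2 (1.44, adjusted p = 0.111). Without a count filter (1.52, adjusted p = 0.148) or after subtraction of free RNA (1.25, adjusted p = 0.161) it was not called either. Without replicate 1 or 3, when 1 committed OPC sum was left, the rise was 1.28 or 1.80 and not called. The decrease to OLs was -4.34 ± 0.52 (adjusted p = 1.61e-08).

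*Nkx2-2* stood at 60.7, 120, 60.7 and 127 CPM in OPCs, at 162, 57.5, 173 and 174 CPM in committed OPCs and at 28.7, 27.2, 31.9 and 30.9 CPM in OLs. OPCs and committed OPCs overlapped, and their difference did not pass the test (0.81 ± 0.38, adjusted p = 0.217, edgeR). With all 8 libraries in 1 fit it did (1.49, adjusted p = 1.84e-06). Pooled levels of OPCs and committed OPCs were 85.5 and 147 CPM in the control libraries, but 44.9 and 226 CPM in those labelled cKO. After thinning each nucleus to 1000 UMIs the sign turned (-0.38, adjusted p = 0.815), while the median of all genes at this step moved from -0.23 to -0.99. OLs were lower than OPCs (-1.47 ± 0.25, adjusted p = 4.43e-06) and lower than committed OPCs (-2.27 ± 0.37, adjusted p = 1.2e-05). The difference from committed OPCs was not called after thinning (-1.50, adjusted p = 0.234, edgeR).

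*St18* had the largest rise. It stood at 100, 42.7, 115 and 118 CPM in OPCs, at 2907, 2775, 2614 and 1936 CPM in committed OPCs, and at 3453, 2915, 3186 and 2887 CPM in OLs. Committed OPCs exceeded OPCs by 4.70 ± 0.45 (log2, adjusted p = 1.51e-10, edgeR), and by 4.83 without replicate 3 (adjusted p = 1.09e-06). OLs stood above committed OPCs in all 4 libraries, a difference of 0.43 ± 0.42 that did not pass the test with 2 committed OPC sums (adjusted p = 0.605) but passed it after thinning to 1000 UMIs (0.94, adjusted p = 0.0202). Thinning also moved the median of all genes at this step from 0.41 to 1.30, which is above the thinned value of *St18*. The OPC level was 0.328 of the level in free RNA, and the estimated share of free RNA in OPC sums was 17.5% to 33.0%.

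*Myrf* showed the same timing, at 18.5, 4.27, 25.5 and 13.7 CPM in OPCs, 207, 144, 153 and 196 CPM in committed OPCs, and 180, 174, 181 and 177 CPM in OLs. Committed OPCs were higher than OPCs by 3.23 ± 0.48 (adjusted p = 2.62e-06, edgeR), and by 3.75 without replicate 3, when 1 committed OPC sum was left. Between OLs and committed OPCs no difference was called (0.28 ± 0.33, adjusted p = 0.682). With all 8 libraries in 1 fit it was called (0.57, adjusted p = 0.0384, edgeR). The OPC level was 0.175 of free RNA, at the lower end of the estimated share of free RNA in OPC sums (17.5% to 33.0%), and the fold change between OLs and OPCs moved from 3.52 to 7.43 (log2) once the free RNA profile was subtracted.

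*Nkx6-2* was highest in OLs, at 97.7, 138, 154 and 85.9 CPM, against 10.6, 34.2, 16.0 and 41.0 CPM in OPCs and 88.6, 71.9, 69.3 and 21.7 CPM in committed OPCs. OLs exceeded OPCs by 2.45 ± 0.40 (adjusted p = 1.44e-06, edgeR). In this fit neither step alone passed the test (1.58 ± 0.74, adjusted p = 0.219, and 0.87 ± 0.56, adjusted p = 0.36). The first step was called after subtraction of free RNA (9.02, adjusted p = 0.0170, edgeR), where the OPC level before subtraction was 0.107 of free RNA. The second step was called with all 8 libraries in 1 fit (1.24, adjusted p = 0.00335, edgeR). The OL level was 0.569 of the level in free RNA (211 CPM), and *Olig1* in OLs was 0.395 of its free RNA level (310 CPM). Both genes thus had a higher CPM in free RNA than in the nuclei of any stage, except *Olig1* in OPCs.

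Counted together, 9 of the 10 genes were called between OLs and OPCs, 3 higher and 6 lower, where 36.8% of all 12745 genes were called (17.4% higher and 19.4% lower). Their median log2 fold change was -1.39, against 0.11 over all genes. From OPCs to committed OPCs 4 were higher and 1 lower, against 9.25% of all genes called (3.66% higher and 5.59% lower), and their median was 1.19 against -0.23. Without replicate 3 the share called was 3.07%, and 3 members were called. From committed OPCs to OLs 0 were higher and 5 lower, against 13.5% called (7.04% higher and 6.43% lower), with a median of -1.04 against 0.41. Without replicate 3 the share was 5.56%, and 4 members were called. Over all genes, 47.3% of the calls between OLs and OPCs were higher in OLs, which became 32.1% with RLE scaling and 26.7% with DESeq2, which tested 21699 genes. The direction of each of the 9 called members was the same with both.

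Per kilobase of gene span, under that assumption, *Olig1* had the highest level in OPCs (151 CPM per kb), followed by *Sox10* (31.2) and *Olig2* (29.4). In OLs *Olig1* (56.7), *Nkx6-2* (35.1) and *Sox10* (23.5) led, and *St18*, which had the highest count of all, stood at 8.41 CPM per kb. In committed OPCs the order began with *Olig1* (48.0), *Sox10* (32.7) and *Nkx6-2* (19.6).

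UMIs of *Sox6* were found together with those of *Tcf7l2* or *St18* in most nuclei of the committed stage. In control libraries 41 of 50 committed OPC nuclei (82%) held UMIs of both *Sox6* and *Tcf7l2*, compared with 26.9% of OPCs and 0.189% of OLs. *Sox6* together with *St18* was found in 88% of committed OPCs, 12.1% of OPCs and 2.24% of OLs. *Olig2* together with *Sox10* was found in 32%, 27.5% and 4.43%. Singly, *Sox6*, *Tcf7l2*, *St18*, *Olig2* and *Sox10* were found in 92%, 90%, 96%, 46% and 72% of control committed OPC nuclei. Whether joint detection exceeds what these single shares give was not tested. The committed OPC sums of the control libraries held 9519 to 12798 CPM of OL markers beside 2614 to 3378 CPM of OPC markers. In relative marker level OLs came second in this cluster (0.400), and its depth was 1.87 times that of its libraries. Other clusters past both limits for a mixture (0.2 and 1.3) were left unnamed, while the committed OPC cluster was exempt from that rule, and the part of mixed nuclei in the joint detection was not tested. Committed OPCs were deeper, with a median of 5668 UMIs against 3279 in OPCs and 2651 in OLs. After thinning to 1000 UMIs they still held a mean of 3.16 of the 10 genes per nucleus, against 1.86 in OPCs and 1.63 in OLs. Thinning left out 1 committed OPC, 15 OPC and 346 OL nuclei.

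Other regulators of the lineage were read from 3 lists. These too were chosen with earlier results of these data known, so their counts beside the share of all genes are descriptions. Of 21 precursor-side regulators, 19 were tested, and from OPCs to OLs 1 was higher and 11 lower, with a median of -1.21, where 17.4% of all genes were called higher and 19.4% lower and the median was 0.11. Without replicate 3 the counts were 0 and 11, as *Sox2* was not called. *Etv4* and *Etv5*, factors downstream of growth factor signalling, differed by -7.73 ± 0.39 and -5.69 ± 0.25, *Zeb1*, a repressor of epithelial genes, by -6.99 ± 0.24, and *Sox5*, the close relative of *Sox6*, by -6.28 ± 0.28. *Sox5* was already lower in committed OPCs (-1.66 ± 0.33), at 347 to 413 CPM in the 2 committed OPC sums against 999 to 1145 CPM in OPCs. *Etv5* and *Etv4* had 0 UMIs in these 2 sums, which with a floor of 3 UMIs over both makes them at least 18.8-fold and 9.60-fold lower there than in OPCs.

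Of 16 differentiation-side regulators, 15 were tested, and 8 were higher and 1 lower in OLs than in OPCs, with a median of 0.86. *Smad7*, an inhibitor of TGF-beta and BMP signalling, rose by 3.32 ± 0.38, *Zfp536* by 2.90 ± 0.32, *Nfe2l3* by 2.83 ± 0.28 and *Klf13* by 2.60 ± 0.24 (log2, all called by edgeR). Between OPCs and committed OPCs 6 were higher and 1 lower. *Zfp365* also peaked in committed OPCs, at 13.7 to 28.7 CPM in OPCs, 139 to 192 CPM in committed OPCs and 53.3 to 65.9 CPM in OLs. Of 16 cofactors and chromatin regulators 2 were higher and 5 lower in OLs than in OPCs, with a median of -0.14, a share of calls near the 36.8% over all genes. Without replicate 3 they were 2 and 3, as *Ezh2* and *Hdac2* were not called, and the differentiation side had 8 and 1, where 31.7% of all genes were called. Among them the histone deacetylase *Hdac11* rose by 2.51 ± 0.28 and the corepressor *Tle1* by 1.44 ± 0.34, while *Kdm6b*, a histone demethylase, differed by -2.48 ± 0.33 and *Tle4*, a partner of TCF proteins, by -1.35 ± 0.19. *Tle4* peaked in committed OPCs (266 to 284 CPM, against 107 to 153 in OPCs and 47.4 to 52.4 in OLs), the stage in which *Tcf7l2* was highest.

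At the step from OPCs to committed OPCs 3.66% of all genes were called higher and 5.59% lower, with a median of -0.23. From OPCs to committed OPCs 1 precursor-side regulator was higher and 8 lower, with a median of -2.13 that became -1.74 once genes without a UMI in committed OPCs stood at their bound or were left out. *Etv1* differed by -3.44 ± 0.40 and *Zeb1* by -3.08 ± 0.32, and on the differentiation side *Zfp365* rose by 2.77 ± 0.44, *Smad7* by 2.37 ± 0.59, *Nfe2l3* by 2.21 ± 0.47 and *Zfp536* by 1.64 ± 0.40. Of the cofactors *Tle4* was the 1 gene called of 16 (0.89 ± 0.28), a share near the 9.25% over all genes. At the next step 7.04% of all genes were called higher and 6.43% lower, with a median of 0.41. From committed OPCs to OLs 1 precursor-side regulator was higher and 4 lower, led by *Sox4* (-4.79 ± 0.44), *Sox5* (-4.62 ± 0.35), *Zeb1* (-3.91 ± 0.37) and *Prrx1* (-2.70 ± 0.75), while the median of the list was 0.81, or 0.43 without the 4 genes at 0 in committed OPCs. On the differentiation side 4 were higher and 1 lower, with *Nfe2l2* at 2.89 ± 0.73, *Creb5* at 1.35 ± 0.38, *Zfp536* at 1.26 ± 0.40 and *Zfp365* at -1.22 ± 0.34. Of the cofactors 3 were higher and 2 lower, with the corepressors *Tle3* at 3.42 ± 0.96, *Tle1* at 2.94 ± 0.86 and *Tle4* at -2.23 ± 0.27, and *Kdm6b* at -2.48 ± 0.64. Without replicate 3, where 3.07% of all genes were called at the first step and 5.56% at the second, the first step kept 0 higher and 4 lower of the precursor side (*Etv1*, *Etv4*, *Etv5* and *Zeb1*), 4 higher and 0 lower of the differentiation side, *Zfp365*, *Smad7* and *Zfp536* among them, and 0 cofactors, while *Sox5*, *Nfe2l3* and *Tle4* were not called. The second step kept *Sox4*, *Sox5*, *Zeb1* and *Prrx1*, 0 genes of the differentiation side, and *Tle4* with 1 other cofactor.

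Against other cell types 7 precursor-side regulators were higher in the lineage and 3 lower, 8 differentiation-side regulators higher and 1 lower, and 5 cofactors higher and 0 lower, where 29.3% of all genes were called (22.7% higher and 6.63% lower). The count of cofactors is near that share. Without replicate 3 the counts were 7 and 2, 8 and 0, and 5 and 0, where 21.7% of all genes were called. The named genes were *Etv4* (3.74), *Sox2* (2.80) and *Etv1* (1.94) of the first list, *Sox8* (2.20), *Creb5* (1.83), *Zfp536* (1.70) and *Zeb2* (1.51) of the second, and *Hdac3* (1.49, not called without replicate 3), *Chd7* (1.42), *Ezh2* (1.23) and *Tcf4* (1.13) of the third. The list medians were 0.38, 0.87 and 0.31, against 0.30 over all genes.

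In the control libraries 6 of the 10 genes stood below their level in free RNA in all 7 cell types outside the lineage, the exceptions being *Sox6*, *St18*, *Tcf7l2* and, in endothelial cells, *Zfp488*. In the libraries labelled cKO *Sox10* stood above it in T cells (1.27 times free RNA) and *Zfp488* in neurons (1.44 times). In the mean of OPCs and OLs against the mean of 7 other cell types, 8 genes were higher and 1 lower, where 29.3% of all genes were called, 22.7% higher and 6.63% lower. The largest differences were *Nkx2-2* (4.85 ± 0.37), *Zfp488* (4.32 ± 0.55), *Sox10* (3.15 ± 0.17), *Olig2* (2.65 ± 0.19) and *Olig1* (2.35 ± 0.17), all called by edgeR. *Nkx2-2* and *Zfp488* had 0 UMIs in mural cells and T cells, which allows up to 36.2 CPM in the first and 31.4 CPM in the second, so these 2 fitted values and their rank depend on sums without a count. *Nkx6-2* (0.75 ± 0.33, adjusted p = 0.0732) missed the threshold and passed it when libraries were blocks (0.84, adjusted p = 0.0153, edgeR) and without replicate 3 (0.91, adjusted p = 0.0270), when *Myrf* was not called (0.65, adjusted p = 0.153). Of all genes called in this comparison 77.4% were higher in the lineage, and 40.2% with library totals as the only scaling, under which *Myrf* (0.52, adjusted p = 0.158) and *Sox6* (0.42, adjusted p = 0.313) were not called. After subtraction of the free RNA profile *Myrf* (0.0641), *St18* (0.73, adjusted p = 0.161, edgeR) and *Sox6* (0.20, adjusted p = 0.934) were not called.

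Taken 1 cell type at a time, OLs differed from astrocytes in all 10 genes (8 higher and 2 lower, where 49.5% of all genes were called) and from fibroblasts in all 10 (8 and 2, 50.9%). Against neurons 8 were higher in OLs and 1 lower (48.3%), against myeloid cells 7 and 2 (44.2%), against endothelial cells 6 and 2 (37.9%), against T cells 5 and 0 (24%) and against mural cells 2 and 1 (12.6%). OPCs were higher than astrocytes in 6 genes and lower in 1 (32.4% of all genes called), and the counts were 6 and 2 against fibroblasts (35.6%), 7 and 1 against neurons (22.9%), 6 and 1 against myeloid cells (38.1%), 6 and 2 against endothelial cells (29.5%), 6 and 0 against T cells (18.5%) and 5 and 1 against mural cells (9.53%).

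In astrocytes 2 of the members, *Sox6* and *Tcf7l2*, stood far above free RNA. For *Olig1*, *Olig2*, *Sox10*, *Myrf*, *Nkx2-2*, *Nkx6-2* and *Zfp488* the astrocyte level was between 0.113 and 0.158 of the level in free RNA, and the estimated share of free RNA in the astrocyte sums was 10.1% to 16.9%. These levels are not read as expression in astrocytes, and the part of free RNA in them was not tested. *St18* stood at 0.227 of free RNA. *Sox6* reached 864 CPM, 18.2 times its level in free RNA, with 806 to 904 CPM over the 4 libraries, and 56.1% of astrocytes held a *Sox6* UMI after thinning, against 82.7% of OPCs and 0.9% of OLs. *Tcf7l2* reached 347 CPM in astrocytes (310 to 381) and 326 CPM in fibroblasts (278 to 391), 6.86 and 6.45 times free RNA. OLs were the named cell type with the lowest level of both genes.

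*Tcf7l2* was the 1 gene that was lower in the lineage than in other cell types (-0.72 ± 0.22, adjusted p = 0.00802, edgeR). OLs were below astrocytes by -3.20 ± 0.24 and OPCs by -1.44 ± 0.26, both called. The value excludes committed OPCs, the stage where *Tcf7l2* peaked. It was not called without replicate 2 (-0.39, adjusted p = 0.546) or 3 (-0.74, adjusted p = 0.0633). *St18* pooled over control libraries stood above free RNA in endothelial cells (815 CPM, 405 to 1102) and neurons (522 CPM, 102 to 709). The same held in myeloid cells (482 CPM, 277 to 758). In mural cells the pooled level was 422 CPM, and the range of 365 to 791 CPM covers replicates 2 and 3 only, with 12 nuclei each. Replicates 1 and 4, with 9 and 7 mural nuclei, enter the pooled level only. The highest mural level was that of replicate 2, and without this library the pooled mural level lies below that of free RNA. OL markers in the same sums reached 11072 CPM in endothelial sums and 8217 CPM in myeloid sums of the control libraries. The part of OL RNA in these *St18* levels was not tested.

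Over the mean levels of 10 cell types, the gene most like each member was found among 13957 genes by the correlation of log2(CPM + 1), which is a description over 10 points that share their libraries. *Olig1* was most like *Olig2* (r = 0.89), its neighbour on chromosome 16, then *H1f4* (0.85) and *Epn2* (0.83). *Olig2* was most like *Susd5* (0.93), *Abtb2* (0.90) and *Olig1*. *Sox10* stood next to *Bcat1* (0.95), *Gjc3* (0.95) and *Bcas1* (0.92). *Myrf* was closest to *Mbp* (0.98), which encodes myelin basic protein, *Cpm* (0.97) and *Rtkn2* (0.97), and *Nkx6-2* to *Trim59* (0.95), *Qdpr* (0.94) and *Opalin* (0.94), a myelin protein gene. *St18* was closest to *Elovl7*, a fatty acid elongase gene, *Srcin1* and *Slc44a1* (all 0.96). *Zfp488* followed *Mroh3* (0.96), *Gpr17* (0.95), the receptor gene that marks the committed stage, and *Dct* (0.95). *Nkx2-2* followed 4930447A16Rik (0.96), *Snx22* (0.95) and *Gpat4* (0.95), *Tcf7l2* followed *Dcbld2* (0.90), *Tcf7l1* (0.86) and Gm31249 (0.84), and *Sox6* followed *Spon1* (0.96), *Nckap5* (0.92) and *Tspan3* (0.90).

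Within control OLs the members differed in how evenly they were spread over 13 clusters of at least 100 nuclei. *Sox10* ranged from 202 to 272 CPM, *St18* from 2295 to 3426 CPM and *Myrf* from 143 to 220 CPM, while *Olig1* ranged from 52.3 to 231 CPM and *Olig2* from 17.4 to 60.9 CPM. The highest *Olig1*, *Olig2* and *Myrf* levels were in a cluster of which control replicate 3 gave 81.7% of the nuclei. The lowest *Olig1*, *Olig2*, *Nkx6-2* and *Myrf* levels were all in 1 of the clusters with *Art3* and *Onecut2* among their 10 leading genes (median 3843 UMIs per control nucleus, where the 13 clusters ranged from 985 to 4808). Control replicate 1, the library with the lowest *Olig1* and *Olig2* levels in OLs, gave 50.1% of its control nuclei. Within each of the 4 control libraries these 4 genes were also lower in that cluster than in the other OLs, with *Olig1* at 52.0, 43.3, 63.7 and 59.1 CPM against 80.6, 127, 179 and 144 CPM. For *Olig2* the cluster held 2 to 21 UMIs per library. Between OLs with and without a *Piezo2* UMI, the split the study used, 0 of the 10 genes were called, where 0.649% of all 12334 genes were, and 1 had an unadjusted p below 0.05. This was *Zfp488* (-1.21 ± 0.33, adjusted p = 0.179, edgeR), with 1.57, 2.51, 1.66 and 3.91 CPM in *Piezo2*-positive OLs and 4.88, 6.22, 6.01 and 4.76 CPM in the negative OLs of replicates 1 to 4. It was lower in the positive nuclei of all 4 libraries, and a fit with libraries as blocks called it (-1.25, adjusted p = 0.00321), with 3.39% of all genes called in that fit. *Olig1*, *Olig2*, *Myrf* and *Sox6* were also lower, and *St18* higher, in the positive nuclei of all 4 libraries, without a call. The other members had no single direction, and the share of all genes with 1 direction in all 4 libraries was not counted. The share of all genes called fell from 0.649% whichever library was left out, to 0.251%, 0.0162%, 0.0885% and 0.0795% without replicates 1 to 4. The *Zfp488* counts were 6 to 15 UMIs per sum, and positive nuclei were deeper (2928 to 3835 mean UMIs against 1999 to 2708).

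The comparison of genotypes asks whether the regulators of the lineage differ when cre is expressed from *Olig2*. In OLs 0 of the 10 genes were called, where 0.0829% of 14467 genes were (0.0276% higher and 0.0553% lower), and 3 had an unadjusted p below 0.05. In OPCs 0 of 8 tested genes were called, where 0.248% of 6443 genes were (0.0466% higher and 0.202% lower), and 2 had an unadjusted p below 0.05. *Myrf* and *Zfp488* had too few counts in OPCs to be tested. The share of all genes with an unadjusted p below 0.05 is not given for any comparison. Counts of members or list genes below that p are therefore descriptions. DESeq2 also called 0 members in both cell types.

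*Olig2* was not lower in the libraries labelled cKO. In OLs it stood at 23.8, 31.7, 41.3 and 27.5 CPM in the control libraries and at 43.8, 52.3, 49.1 and 44.3 CPM in replicates 10 to 13 labelled cKO. All 4 cKO-labelled values lay above all 4 control values, an arrangement found for 2.74% of all genes tested in OLs. The log2 fold change was 0.59 ± 0.15 (adjusted p = 0.252, edgeR), and without control replicate 3, the library with pituitary RNA, it was 0.77 and called (adjusted p = 0.0494). In OPCs *Olig2* stood at 106, 218, 249 and 173 CPM in the control libraries and at 312, 376, 208 and 232 CPM in those labelled cKO, with overlap, and the log2 fold change was 0.60 ± 0.21 (adjusted p = 0.409). In committed OPCs it was 0.84 ± 0.37 (adjusted p = 0.978).

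The share of OLs with an *Olig2* UMI, which comes from the same UMIs and is no independent measure, was also higher in the libraries labelled cKO. After thinning to 1000 UMIs it was 3.22% ± 0.86 (SD, n = 4) in the control libraries and 4.83% ± 0.60 (SD, n = 4) in those labelled cKO, a difference of 1.60 percentage points (exact permutation test, two-sided, p = 0.0571, where the smallest p possible is 0.0286). Without thinning the shares were 8.86% and 12.3% (exact permutation test, p = 0.0857). The share in control astrocytes was 0.911% after the same thinning, and whether this is background was not tested. The nuclei that entered had a depth before thinning of 3076 UMIs in control astrocytes and 2812 in control OLs (median of the library medians). Free RNA held 56.5 to 61.7 CPM of *Olig2* in the control libraries and 57.4 to 83.1 CPM in those labelled cKO, a log2 fold change of 0.33 ± 0.12 (adjusted p = 0.572, edgeR).

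**Figure D3:**
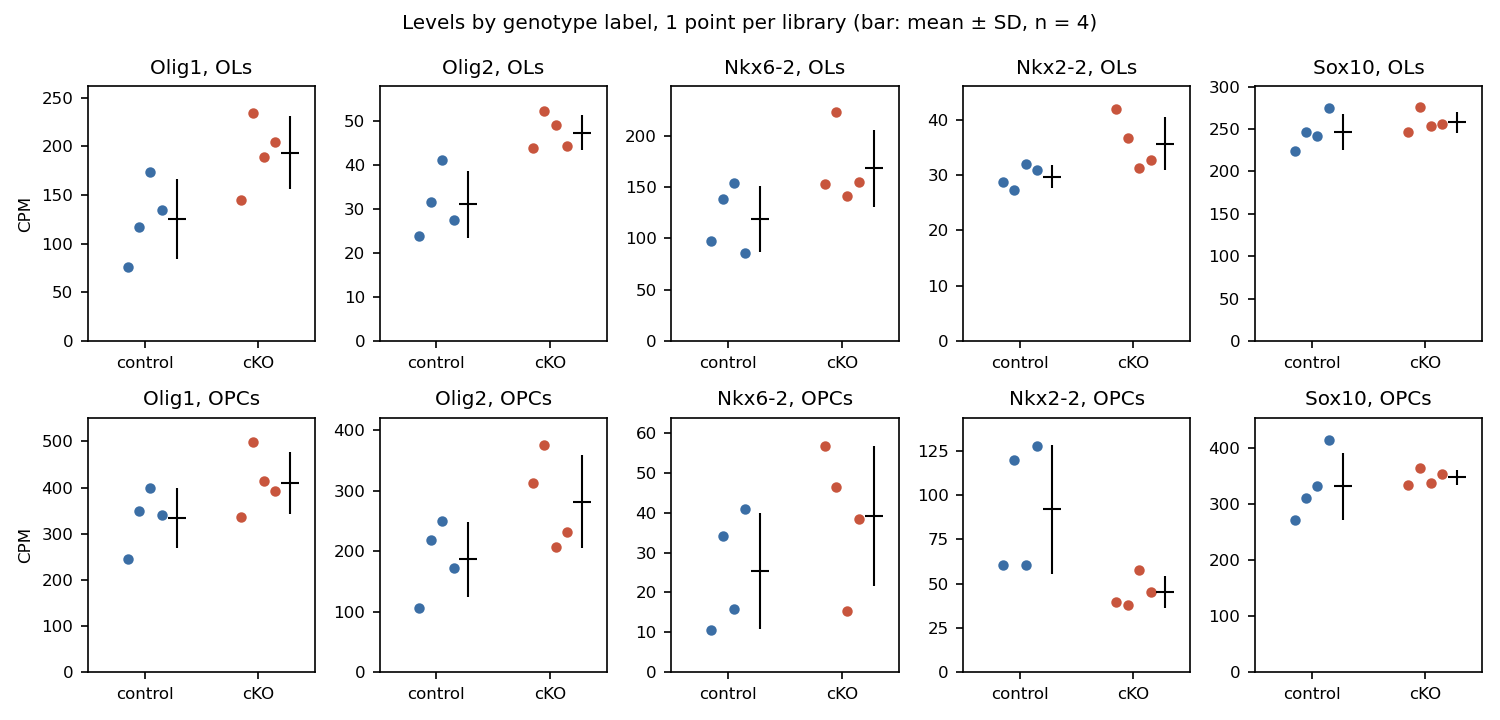
Levels of *Olig1*, *Olig2*, *Nkx6-2*, *Nkx2-2* and *Sox10* (CPM, linear axis from 0) in OLs (top) and OPCs (bottom) of the 4 control libraries and the 4 libraries labelled cKO, with 1 point per library and the group mean ± SD beside them. In OLs the *Olig2* points of the 2 groups do not overlap (at most 41.3 against at least 43.8 CPM), and in OPCs the *Nkx2-2* points do not (at least 60.7 against at most 58.0 CPM).

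*Olig1*, which lies 41.1 kb from *Olig2*, showed 75.8, 117, 174 and 135 CPM in control OLs and 145, 235, 190 and 205 CPM in OLs labelled cKO. The groups overlapped by replicate 3 of the controls, and the log2 fold change was 0.61 ± 0.21 (adjusted p = 0.448, edgeR). *Nkx6-2* stood at 97.7, 138, 154 and 85.9 CPM and at 153, 224, 141 and 156 CPM, with 0.48 ± 0.18 (adjusted p = 0.494). *Olig1* and *Nkx6-2* differed by 0.64 ± 0.12 and 0.55 ± 0.15 in free RNA and by 0.64 ± 0.21 and 0.72 ± 0.22 in astrocytes, none of them called. With the free RNA profile subtracted, neither gene was called in OLs. How much of the size of their differences in OLs comes from free RNA was not tested. In free RNA 0 of the 10 genes were called, where 0.0306% of 16345 genes were. An unadjusted p below 0.05 was found for 6, without the share of all genes to set beside it.

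*Nkx2-2* was the member with the largest difference in OPCs. It stood at 60.7, 120, 60.7 and 127 CPM in the control libraries and at 39.7, 38.1, 58.0 and 45.1 CPM in those labelled cKO. All 4 values of the second group lay below all 4 of the first, as for 2.19% of all genes tested in OPCs. The log2 fold change was -0.97 ± 0.28 (adjusted p = 0.199, edgeR). In OLs it was 0.24 ± 0.11, and the difference between the cell types was 1.19 ± 0.29 (adjusted p = 0.485), so 0 members were called in the test of that difference, where 0.014% of 14322 genes were, and 2 had an unadjusted p below 0.05.

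Differences between genotypes ran with gene span over all genes. In OLs the median log2 fold change was 0.17 for genes up to 5 kb, 0.09 from 5 to 20 kb, -0.01 from 20 to 100 kb and -0.11 above 100 kb. The medians in OPCs (0.21, 0.12, 0.02 and -0.09), astrocytes (0.19, 0.10, -0.02 and -0.13) and free RNA (0.10, 0.05, -0.01 and -0.14) had the same order. Genes up to 5 kb took 4.35% to 5.66% of OL UMIs in control libraries and 5.05% to 6.73% in libraries labelled cKO, with overlap. The 3 members with an unadjusted p below 0.05 in OLs are the 3 shortest of the 10. Against the median of genes in their span class they stood at 0.44 (*Olig1*), 0.50 (*Olig2*) and 0.31 (*Nkx6-2*). The part of gene span in their differences was not tested.

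**Figure D4:**
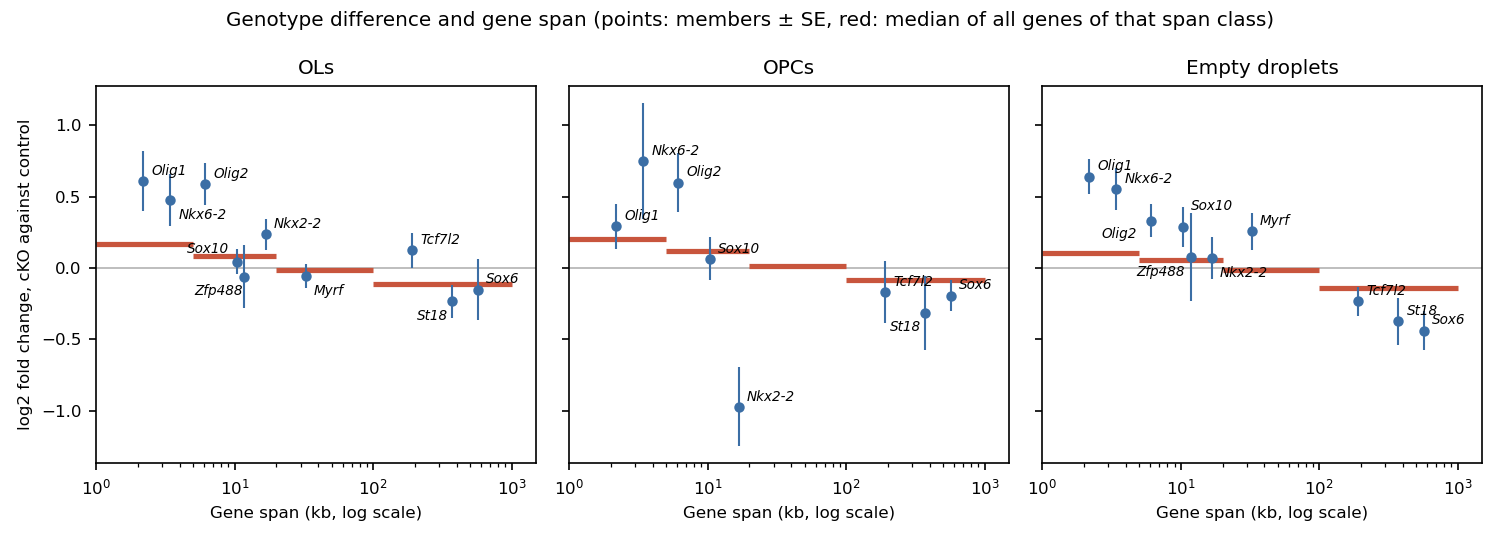
Log2 fold change between libraries labelled cKO and control libraries for each tested member (points, with bars of 1 SE) against gene span in kb (log axis), in OLs, OPCs and free RNA (empty droplets), with red lines at the median of all tested genes in 4 span classes. The medians decline from 0.17 to -0.11 in OLs, and the 3 shortest members lie above their lines in OLs.

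*Tcf7l2*, *St18* and *Sox6*, the 3 longest members, differed by 0.12 ± 0.12, -0.23 ± 0.12 and -0.15 ± 0.21 in OLs and by -0.17 ± 0.21, -0.31 ± 0.26 and -0.19 ± 0.11 in OPCs (0 called by edgeR). *Sox10* (0.04 ± 0.09) and *Myrf* (-0.06 ± 0.08) were the members with the smallest standard errors in OLs, and their values were within 1 SE of 0. Of 20 target genes of these factors, such as *Mbp* and *Mog*, 19 were tested in OLs, 0 were called, where 0.0829% of all genes were, and 3 had an unadjusted p below 0.05, with a median of 0.10 against 0.016 over all genes. With so few genes called, the count is no result about these targets. Of the 3 lists of other regulators 0 genes were called between genotypes in OLs or OPCs. The precursor-side, differentiation-side and cofactor lists had 2, 2 and 1 genes with an unadjusted p below 0.05 in OLs.

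Among the other cell types the 1 member called between genotypes was *St18*, in T cells. It was the only member tested there, and 17 of the 431 genes tested were called (3.94%), 16 of them higher in the libraries labelled cKO. *St18* passed the low-count filter through the sums labelled cKO, where it is high. The call is therefore a description and no independent support. Its levels were 226, 123, 41.9 and 0 CPM in the control libraries (replicates 1 to 4) and 1353, 1039, 1022 and 865 CPM in replicates 10 to 13, from 0 to 6 and 18 to 85 UMIs per library. The groups did not overlap, and the share of all genes that separate likewise in T cells was not counted. The fit held 3 control sums and 2 sums labelled cKO, those with 10 nuclei, and gave 2.89 ± 0.49 (adjusted p = 4.18e-05, edgeR). With 5 nuclei per sum all 8 libraries entered and the value was 3.38 (adjusted p = 0.00022), after subtraction of the free RNA profile as well 3.91 (adjusted p = 0.00352), and with DESeq2 2.94 (adjusted p = 0.0196). The shares of all genes called in these fits were 11.5%, 9.6% and 0.0831%. Of the 20 target genes 7 were tested in T cells, where 0 were called and 6 had an unadjusted p below 0.05 (edgeR), with a median of 1.04 against -0.0256 over all genes. Whether these 7 also passed the low-count filter through the sums labelled cKO was not checked. Their values are a description and no support for the *St18* call. The summed level of 8 OL markers in the same nuclei was 5207 to 9916 CPM in the control libraries and 10337 to 13239 CPM in those labelled cKO, without overlap, and its part in the result was not tested. *Zfp488* had 0 UMIs in T cells of either group, which allows up to 31.4 and 18.2 CPM.

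**Figure D5:**
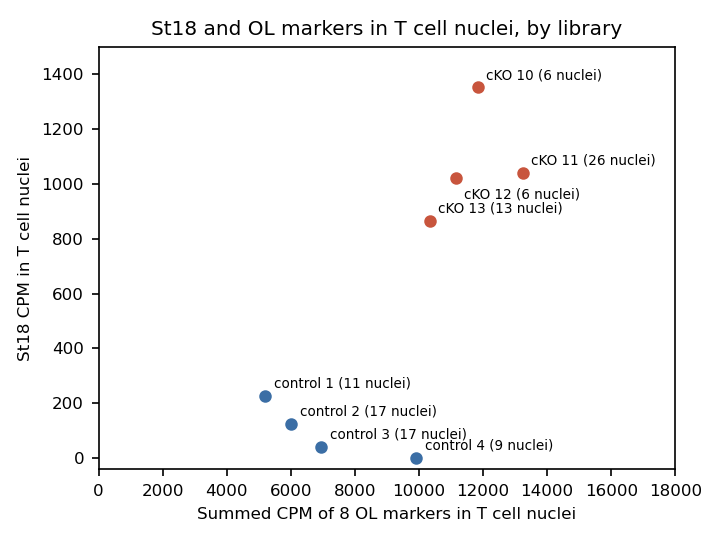
*St18* level in T cells (CPM) against the summed level of the OL markers in the same T cells (CPM), with 1 labelled point per library in the colour of its group. The 4 libraries labelled cKO lie at 865 CPM of *St18* or more and 10337 CPM of OL markers or more, the 4 control libraries at 226 CPM or less and 9916 CPM or less.

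In astrocytes 0 of 9 tested members were called, and the largest values were *Nkx6-2* (0.72), *St18* (-0.67 ± 0.29) and *Olig1* (0.64). An unadjusted p below 0.05 was found for 5, again without the share of all genes. *Sox6*, which astrocytes express, differed there by -0.35 ± 0.10 (adjusted p = 0.564, edgeR), and *Tcf7l2* by -0.21 ± 0.11. In fibroblasts, myeloid cells, neurons, endothelial cells, mural cells and committed OPCs 0 of 8, 6, 5, 2, 1 and 9 tested members were called, where 0% of genes were called in each of these cell types and in astrocytes.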

How the data were processed

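Droplet single-nucleus RNA-seq was analysed for 8 optic nerve libraries (4 control, 4 labelled cKO, each a pool, 39628926 to 56541132 UMIs). The deposited files hold raw UMI counts per gene and barcode that the authors made with Cell Ranger 7.0.0. Whether intronic reads were counted is not given in the sources used here. The 10 genes and all lists were chosen with earlier results of these data known.

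Nuclei were called by UMI rank and by difference from free RNA (barcodes ranked 45000 to 90000), filtered (at least 200 genes, at most 5% mitochondrial UMIs), cleared of predicted doublets with Scrublet and clustered with scanpy 1.11.5. Of 62 clusters, 18 stayed unnamed. For each library and cell type raw counts were added up, keeping sums of at least 10 nuclei and 1000 UMIs, and tested with edgeR 4.0.16 (R 4.3.3, quasi-likelihood, TMM, filterByExpr), with DESeq2 1.42.0 as an alternative. The code was tested on simulated data. Nothing in the labels says more of replicates than that pools were separate, so p-values measure the spread between pools. In the tests between cell types this spread was estimated per gene over all cell types in the fit. Shares were compared by exact permutation over libraries. A count of 0 was given the limit of 3 UMIs, and intervals and limits cover counting error only.

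The text names all 10 members, for each list the 4 called genes with the largest changes or fewer, and for each member the most alike genes. A gene that this rule names may be withheld and is then not reported here. Sums of 1 library come from the same animals: deviations of OL and OPC sums correlated at 0.36 to 0.59 over 2931 genes, and those of *Piezo2*-positive and negative OLs at 0.71 to 0.87 over 3878 genes, so the library was used as a block in an alternative fit. Other alternatives were scaling, the low-count filter, subtraction of free RNA, thinning, the nuclei minimum, doublets kept, all 8 libraries and leaving out each library. The list tests without control replicate 3 were added after seeing the data.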

Additional observations from a re-analysis of the deposited data

How the results depend on the processing

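The number of members called between OLs and OPCs was 9 without any 1 control library, and 8 to 9 against other cell types, where subtraction of free RNA lost *Myrf*, *St18* and *Sox6*. From OPCs to committed OPCs it was 3 to 5, with 3 without control replicate 3, and from committed OPCs to OLs 4 to 5, and 3 after thinning to 1000 UMIs, which leaves fewer genes tested. Thinning also moved the median of all genes at this second step from 0.41 to 1.30, and *Olig2* and *Nkx2-2* were then not called, while *St18* was. Between *Piezo2*-positive and negative OLs the number of members called was 0 without any 1 library and 1 with the replicate block. Between genotypes in OLs it was 0 to 1, with 1 (*Olig2*) without control replicate 3, and in OPCs 0. The genotype difference of *Olig2* was 0.48 to 0.77 in OLs, with 0.77 without control replicate 3, and 0.37 to 0.79 in OPCs, and that of the share of OLs with an *Olig2* UMI 1.30 to 1.90 percentage points. With the library as a block 6 members were called between committed OPCs and OPCs and 10 against other cell types, where 10.1% and 29.2% of all genes were. No paired analysis was possible between genotypes because the groups share no replicate numbers.

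Signs turned for differences near 0 and in sparse sums, and the cause was not tested. Thinning moved the median of all genes from -0.23 to -0.99 between OPCs and committed OPCs. From OPCs to committed OPCs *Sox10* was -0.0256 without a count filter, -0.20 after subtraction of free RNA, -0.42 thinned, -0.16 with 5 nuclei per sum, -0.14 with doublets kept, -0.0124 without the shallow OPC cluster (chosen after seeing the data) and -0.22 to 0.10 without 1 library. *Sox6* there was 0.0625 with DESeq2, 0.0551 with RLE, 0.14 with library totals, 0.0398 with the replicate block and -0.13 to 0.10 without 1 library, and *Nkx2-2* was -0.38 thinned. From committed OPCs to OLs *Sox10* was 0.0768 thinned, and *Myrf* -0.0292 with DESeq2 and -0.0424 with RLE. *Nkx2-2* was -0.00976 thinned in the *Piezo2* split. Between genotypes *Sox10* in OPCs was -0.0515 thinned and -0.0263 to 0.17 without 1 library, *St18* in OPCs 0.39 after subtraction of free RNA, and in OLs *Zfp488* was -0.16 to 0.0125 and *Sox6* -0.29 to 0.0158 without 1 library. The alternatives for *St18* in T cells were also chosen after seeing the data. Committed OPC results rest on 2 control sums, and counts of *Zfp488*, of *Myrf* in OPCs and of all members in T cells were low.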
